A study of Mus musculus with 6 samples.

Results

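Tail tendons of WT and *Mkx*-/- mice were sequenced as bulk tissue, and the levels of 7 transcriptional regulators of tendon and connective tissue were read from the count table: *Mkx*, *Scx*, *Egr1*, *Egr2*, *Six2*, *Eya1* and *Eya2*. The members were the rows of the table with these symbols, 7 of 44788 symbols, and all 7 were among the 14550 genes with enough reads to be tested. The groups were 3 WT and 3 *Mkx*-/- libraries from mice of the C57BL/6 strain, with no treatment in the labels, and each library came from minced tail tendon. The labels give an age of 3 weeks for all 6 samples, whereas the paper's text gives an older age. The methods of the study name another laboratory as the source of the *Mkx*-/- mice and give no Cre or promoter that would limit the loss to tendon, so a loss in other tissues and at earlier ages is part of the model. The labels do not say whether a library came from 1 mouse or from pooled tails.

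Mkx (Mohawk) is an atypical homeodomain protein of the TALE class that recruits co-repressors and is needed for the growth of collagen fibrils in tendon. Scx (Scleraxis) is a basic helix-loop-helix protein that marks tendon progenitors and differentiating tendon cells. Egr1 and Egr2 are zinc finger proteins whose genes respond quickly to mechanical load and growth factors, Six2 is a homeodomain protein, and Eya1 and Eya2 are phosphatases that serve as coactivators of Six-family proteins.

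The libraries held 10835070 to 14160301 counts. *Col1a1*, *Col1a2* and *Sparc* together took 42.0% to 48.5% of the counts in WT and 28.3% to 34.8% in *Mkx*-/- libraries, so levels are given as CPM, counts scaled to a common library size after TMM normalization. Fold changes and adjusted p-values come from edgeR's quasi-likelihood test over all 14550 genes with Benjamini-Hochberg adjustment, and a gene passed the test at an adjusted p under 0.05. WT replicate 1 stood apart from the other WT libraries: the chi-square per degree of freedom between their counts was 34.8 and 36.4 against WT replicates 2 and 3, 7.59 between those, and 20.7 to 24.4 between the *Mkx*-/- libraries. Sex-linked genes put 1 library, WT replicate 3, with a male mouse and the other 5 with females. Tendon markers were abundant in every library, with a summed level of the 7 markers of 377880 to 521370 CPM in WT and 241610 to 336450 CPM in *Mkx*-/- tendons. *Col1a1* and *Col1a2* made up most of this sum in every library. Of the 7 markers 1 rose, *Thbs4*, and 0 fell, against 3.18% and 2.26% of all genes, at a median log2 fold change of -0.024. Without WT replicate 2 or 3, 0 rose, and the median was 0.017 or 0.019. DESeq2, used as an alternative test, passed 2 of the markers as higher and 2 as lower, against 787 and 588 of 14550 genes. *Col1a2* (log2 fold change -1.02) was among those lower by DESeq2. Of the 14 skeletal muscle markers tested 3 rose, against 3.18% of all genes, with 11 without WT replicate 1, 5 without *Mkx*-/- replicate 3 and 0 without any of the other 4 libraries, at a median log2 fold change of 2.95, and the summed level of all 18 was 104 to 449 CPM in WT and 610 to 3195 CPM in *Mkx*-/- libraries, while the muscle lineage genes *Myod1*, *Myog*, *Pax7* and *Myf5* had 0 to 6 counts. In bulk tissue, fewer cells of a type and less RNA per cell cannot be told apart.

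Of the 7 members, 2 passed the test, *Mkx* and *Eya1*, both lower in *Mkx*-/- tendons, against 5.44% of all genes tested that passed in either direction and 2.26% that passed as lower. *Mkx* is itself the knocked-out gene, and of the other members *Eya1* alone passed, a call lost in some of the fits without 1 library. Only *Mkx* also passed a log2 fold change of 1, as 3.22% of all genes did, 1.89% as higher and 1.33% as lower. The groups did not overlap for 5 members, *Mkx*, *Egr1* and *Eya1* lower and *Egr2* and *Six2* higher in *Mkx*-/- tendons, against 28.2% of all genes. *Scx* and *Eya2* overlapped. The median log2 fold change of all genes tested was -0.0037.

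**Figure D1:**
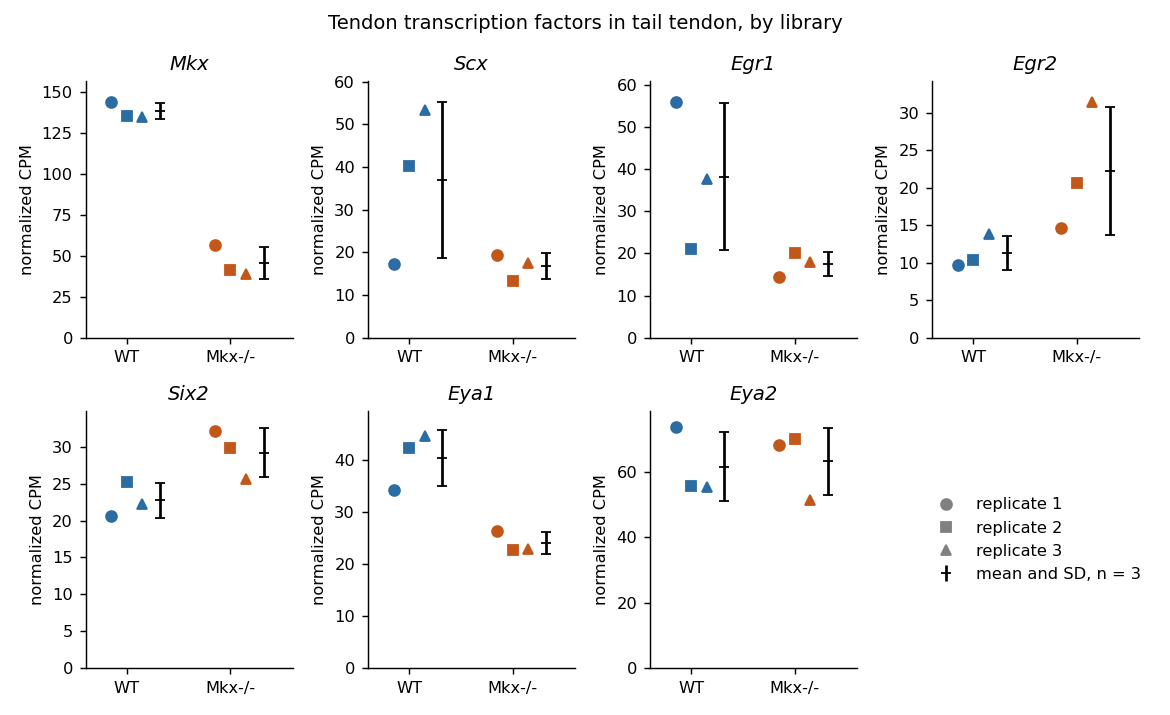
Normalized CPM (vertical axes, starting at 0) of the 7 genes in each WT and *Mkx*-/- library, with 1 symbol per replicate and the mean and SD of 3 libraries beside them. *Mkx* and *Eya1* are lower in every *Mkx*-/- library than in any WT library, whereas WT replicate 1 lies among the *Mkx*-/- libraries for *Scx*, and the WT libraries of *Egr1* run from 21.1 to 55.9 CPM.

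The knocked-out gene was examined first. *Mkx* lies on the minus strand of mm9 chromosome 18, from 6934964 to 7004777, in 7 exons. Its level was 144, 136 and 135 CPM in the WT libraries and 56.8, 41.4 and 38.9 CPM in the *Mkx*-/- libraries. The WT libraries lay within 1.06-fold of each other, and each *Mkx*-/- library was far below them. With means of 138 ± 4.92 CPM (SD, n = 3) and 45.7 ± 9.68 CPM (SD, n = 3), *Mkx* kept 33.1% of the WT level, a log2 fold change of -1.60 (SE 0.16, 95% interval -1.97 to -1.23, adjusted p = 0.00183 by edgeR's quasi-likelihood test). Between 491 and 620 reads were thus counted on the gene in each knockout library. Counts per gene do not show which exons they lie in.

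The co-repressors that Mkx is known to recruit did not pass the test. Of 6 genes of the Sin3-histone deacetylase complex listed, 5 were tested, 0 passed and 0 had an unadjusted p under 0.05, also by DESeq2 at an adjusted p under 0.05. Their median log2 fold change was -0.11. *Sin3a*, the scaffold of the complex, had 42.6, 34.4 and 29.1 CPM in WT and 29.0, 28.7 and 28.7 CPM in *Mkx*-/- libraries (log2 fold change -0.29, adjusted p = 0.302 by edgeR). The sixth gene, *Sap30*, had 5 to 13 counts and was not tested.

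*Scx* is a short gene of 2 exons on the plus strand of chromosome 15 (76287868 to 76289898 in mm9), inside the span of *Bop1*, a ribosome biogenesis gene on the opposite strand whose exons it does not overlap. Its level was 17.3, 40.2 and 53.4 CPM in the WT libraries and 19.4, 13.3 and 17.5 CPM in the *Mkx*-/- libraries. WT replicates 2 and 3 were higher than every *Mkx*-/- library, and WT replicate 1 fell inside the range of the *Mkx*-/- libraries, so the groups overlapped. The WT levels spanned 3.08-fold. The WT mean was 37.0 ± 18.2 CPM (SD, n = 3) and the *Mkx*-/- mean 16.8 ± 3.10 CPM (SD, n = 3), a log2 fold change of -1.14 (SE 0.36, 95% interval -1.97 to -0.32) that did not pass edgeR's test (adjusted p = 0.106). DESeq2, on the same counts, gave -1.15 with an adjusted p of 0.0137. The call rested on the WT libraries: without WT replicate 1 the log2 fold change was -1.49 and passed (adjusted p = 0.00323 by edgeR), and without WT replicate 3 it was -0.80 (adjusted p = 0.264 by edgeR).

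Scx acts as a dimer with the E proteins Tcf3, Tcf4 and Tcf12, and Id proteins block such dimers. Of 13 relatives and partners listed, 10 were tested and 0 passed edgeR's test. An unadjusted p under 0.05 was found for 4 of the 10, against 22.6% of all genes, and DESeq2 passed 2. The median log2 fold change was -0.15. *Id4* had 0.473, 0.785 and 0.240 CPM in WT and 1.10, 2.11 and 3.01 CPM in *Mkx*-/- libraries, without overlap but from 3 to 38 counts (log2 fold change 2.08, SE 0.52, adjusted p = 0.0599 by edgeR). *Twist2*, a helix-loop-helix repressor of mesenchyme, was at 11.0, 9.91 and 7.77 CPM in WT and 4.67, 5.83 and 6.50 CPM in *Mkx*-/- libraries (log2 fold change -0.75, adjusted p = 0.0725 by edgeR). The groups of *Id4* and *Twist2* did not overlap, and neither gene passed edgeR's test, whereas both passed DESeq2 (adjusted p = 0.0185 and 0.0454). *Id3* had 97.4 CPM in WT replicate 1 and 34.7 to 61.3 CPM in the other libraries, with overlapping groups (log2 fold change -0.72, adjusted p = 0.197 by edgeR). *Tcf15*, the closest relative of *Scx* and a gene of the somites, had 3, 1 and 6 counts in the *Mkx*-/- and 0 in the WT libraries, too few to be tested.

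TGF-beta signalling induces *Scx* in tendon cells, and its ligands, receptors and Smads were listed for that reason. All 10 were tested and 0 passed edgeR's test, with 3 at an unadjusted p under 0.05, against 22.6% of all genes, and 1 passed by DESeq2. Their median log2 fold change was -0.017, with a sign that turned in 4 of the 6 fits without 1 library. *Tgfbr1*, the type I receptor, was at 36.0, 42.8 and 45.7 CPM in WT and 30.8, 26.8 and 29.7 CPM in *Mkx*-/- libraries (log2 fold change -0.51, adjusted p = 0.066 by edgeR). It was lower in each *Mkx*-/- library than in any WT library, and without WT replicate 1 the count of passing genes in this list was 1. *Tgfb1*, a ligand, was at 26.5, 24.0 and 23.3 CPM in WT and 34.3, 31.9 and 29.1 CPM in *Mkx*-/- libraries (log2 fold change 0.37, adjusted p = 0.122 by edgeR).

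The plot of fold changes with each library left out shows how far single libraries carried the members.

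**Figure D2:**
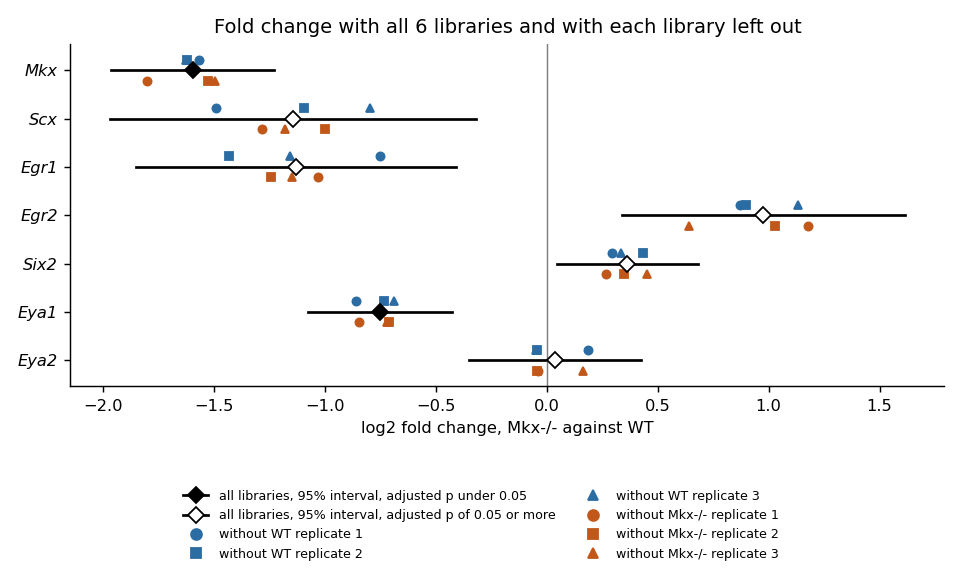
Log2 fold change of *Mkx*-/- against WT (horizontal axis) for each of the 7 genes, with diamonds for all 6 libraries and their 95% intervals, filled where the adjusted p was under 0.05, and small symbols for the fits without each library. *Mkx* stays between -1.80 and -1.49, *Scx* spreads from -1.49 to -0.80, *Egr1* from -1.43 to -0.75, *Egr2* from 0.64 to 1.18, and *Eya2* crosses 0.

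The means of the Egr genes differed between genotypes in opposite directions, and neither passed the test. *Egr1* lies on the plus strand of chromosome 18 (35020861 to 35024638), and the end of its last exon overlaps *Gm17507* on the opposite strand, so without strand information some reads could belong to either. *Egr1* was at 55.9, 21.1 and 37.6 CPM in the WT libraries and 14.4, 20.0 and 17.9 CPM in the *Mkx*-/- libraries. Every *Mkx*-/- library was lower than every WT library, but WT replicate 2 was close to the highest *Mkx*-/- library. The means were 38.2 ± 17.4 CPM (SD, n = 3) and 17.4 ± 2.85 CPM (SD, n = 3), a log2 fold change of -1.13 (SE 0.31, 95% interval -1.85 to -0.41, adjusted p = 0.0771 by edgeR). DESeq2 gave -1.14 with an adjusted p of 0.00549. Without WT replicate 2 the fold change was -1.43 and passed (adjusted p = 0.0298 by edgeR), and without WT replicate 1 it was -0.75 (adjusted p = 0.104 by edgeR).

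*Egr2*, also known as Krox20, is the factor that switches on myelin genes in Schwann cells, the glia of peripheral nerve, and is also expressed in embryonic tendon. The gene lies on the plus strand of chromosome 10 (66998223 to 67004936). Its level was 9.69, 10.3 and 13.9 CPM in the WT libraries and 14.6, 20.6 and 31.5 CPM in the *Mkx*-/- libraries. The groups did not overlap, with a narrow gap between WT replicate 3 and *Mkx*-/- replicate 1 and a spread of levels among the *Mkx*-/- libraries. The means were 11.3 ± 2.25 CPM (SD, n = 3) and 22.2 ± 8.57 CPM (SD, n = 3), a log2 fold change of 0.98 (SE 0.28, 95% interval 0.34 to 1.61, adjusted p = 0.0823 by edgeR). DESeq2 gave 0.97 with an adjusted p of 0.0159. Without *Mkx*-/- replicate 3 the fold change was 0.64 (adjusted p = 0.215 by edgeR), and without *Mkx*-/- replicate 1 it was 1.18 and passed (adjusted p = 0.0418 by edgeR).

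In reads of *Egr2* per read of *Egr1*, a ratio within a library that does not depend on scaling, the WT libraries had 0.174, 0.490 and 0.370 and the *Mkx*-/- libraries 1.01, 1.03 and 1.76. The ratio was higher in each *Mkx*-/- library than in any WT library. Reads are not scaled by exon length, so the ratio does not rank the genes. Per kilobase of exon, *Egr2* was at 4.29, 6.06 and 9.26 CPM in *Mkx*-/- libraries and *Egr1* at 4.64, 6.46 and 5.78 CPM. *Egr2* was thus above *Egr1* in *Mkx*-/- replicate 3 only. The mean log2 ratio differed by 1.95, or 3.87-fold, with a two-sided exact permutation p of 0.1, the smallest that 3 against 3 libraries can give. Under each library left out in turn the difference was 1.52 to 2.27.

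*Egr2* has 5 promoter windows in the RefSeq promoter table, each reaching from 250 bases before an annotated start to 50 bases from it on. Each window matched mm9 exactly 1 time, which gave its position in that build. The CArG box, the letters bound by serum response factor in promoters of immediate early genes, was found in 4 of the 5 windows at 2 distinct sites, whereas 1.63% of the 32851 windows in the table hold it on either strand. The windows of *Egr2* overlap in part, and 3 of the 4 share a site. A stretch around each site is shown because *Egr1* and *Egr2*, both immediate early genes, had values in opposite directions, with the CArG box in capitals. The stretch shown of window 2 covers chr10:67000183-67000302 and that of window 3 covers chr10:67000486-67000605. Both are on the plus strand and reach from 131 to 12 bases before the start of their window's transcript.
Egr2 window 2: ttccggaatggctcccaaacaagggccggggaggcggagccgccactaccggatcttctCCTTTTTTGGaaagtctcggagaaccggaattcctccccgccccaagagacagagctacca
Egr2 window 3: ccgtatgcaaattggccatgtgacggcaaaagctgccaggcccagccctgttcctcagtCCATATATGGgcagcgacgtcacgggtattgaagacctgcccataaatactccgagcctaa
In both windows the box starts at base -72 from the annotated start. The match is a description of the letters and not of binding. The E-box CANNTG, bound by helix-loop-helix proteins such as Scx, was found in 4 of the 5 windows of *Egr2*, but 72.3% of all windows hold it. The Egr motif GCGNGGGCG (5.55% of all windows) and the MEF3 core TCAGGTT of Six-family proteins (4.07%) were not found in these windows on either strand.

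Immediate early genes, which cells transcribe within minutes of a stimulus, were then counted from a list. Of 23 immediate early genes, 21 were tested: 5 fell, 1 rose and 15 did not pass, against 2.26% of all genes that passed as lower and 3.18% as higher. The median log2 fold change of the list was -0.27, but 0.074 without WT replicate 1, -0.12 without *Mkx*-/- replicate 1, -0.14 without *Mkx*-/- replicate 3 and 0.020 with the filter of 1 count in any library. *Fosb*, an AP-1 subunit, was at 98.2, 131 and 118 CPM in WT and 50.7, 42.4 and 42.1 CPM in *Mkx*-/- libraries, a fall to levels well below every WT library (log2 fold change -1.36, SE 0.15, adjusted p = 0.0025 by edgeR). *Dusp1*, a phosphatase of MAP kinases, was at 292, 153 and 187 CPM in WT and 94.9, 97.8 and 79.2 CPM in *Mkx*-/- libraries (-1.22, SE 0.23, adjusted p = 0.0248 by edgeR), and *Jun* fell less (-0.69, SE 0.13, adjusted p = 0.0252 by edgeR). *Fos* was at 135, 36.1 and 90.4 CPM in WT and 17.3, 24.0 and 28.2 CPM in *Mkx*-/- libraries (-1.91, SE 0.42, adjusted p = 0.0404 by edgeR). The fifth gene that fell was *Zfp36*, which destabilizes messenger RNA (-0.79, SE 0.18, adjusted p = 0.0454 by edgeR). The orphan nuclear receptor gene *Nr4a2* rose, from 16.1, 15.2 and 23.0 CPM in WT to 35.2, 36.0 and 57.2 CPM in *Mkx*-/- libraries (1.24, SE 0.24, adjusted p = 0.0247 by edgeR).

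Within WT, *Egr1*, *Fos*, *Dusp1* and *Zfp36* had their lowest level in replicate 2 and their highest in replicate 1, so these 4 genes shared the order of the WT libraries. *Jun* was lowest in WT replicate 3, and *Fosb* was lowest in WT replicate 1 and highest in replicate 2. The number of listed genes that fell was 5 without WT replicate 1, 3 without WT replicate 2 and 2 without *Mkx*-/- replicate 3. It was 1 without WT replicate 3, 1 without *Mkx*-/- replicate 1 and 1 without *Mkx*-/- replicate 2. *Nr4a2* lost its call without WT replicate 2 and without *Mkx*-/- replicate 3. Immediate early genes are also expressed by macrophages. All 7 macrophage markers tested were lower in *Mkx*-/- libraries without overlap, against 13.6% of all genes, and 1 passed as lower, against 2.26% (*Csf1r*, log2 fold change -0.63, not past the test without WT replicates 2 or 3 or *Mkx*-/- replicates 2 or 3). Their summed level was 429 to 478 CPM in WT and 283 to 342 CPM in *Mkx*-/- libraries. Their part in the level of *Egr1* was not tested.

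Of the relatives, cofactors and upstream factors of the Egr genes, 9 of 10 listed were tested, 0 passed edgeR's test, 0 had an unadjusted p under 0.05 and 0 were passed by DESeq2. The median log2 fold change was 0.15. *Egr3* was at 3.23, 4.61 and 2.16 CPM in WT and 2.75, 3.37 and 4.04 CPM in *Mkx*-/- libraries, with overlapping groups (log2 fold change 0.037, SE 0.31, and below 0 without WT replicate 3 or *Mkx*-/- replicate 3), and *Egr4* had 0 counts in every library. *Nab2*, a co-repressor that binds Egr1 and Egr2, had a WT mean of 27.6 ± 6.96 CPM (SD, n = 3) and an *Mkx*-/- mean of 34.5 ± 4.76 CPM (SD, n = 3). *Srf*, the gene of serum response factor, was at 22.4, 31.9 and 31.6 CPM in WT and 34.3, 27.5 and 33.1 CPM in *Mkx*-/- libraries.

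Schwann cell markers were measured beside *Egr2*, since Egr2 is a factor of myelinating glia. All 8 markers counted were tested, and all 8 had an unadjusted p under 0.05, against 22.6% of all genes, and a higher mean in *Mkx*-/- tendons. By edgeR's test 1 rose (*Ncmap*, a myelin membrane protein, adjusted p = 0.0468), against 3.18% of all genes, and 7 passed DESeq2, against 1375 of 14550 genes. Their summed level was 4777, 5469 and 6090 CPM in the WT libraries and 7108, 11683 and 13023 CPM in the *Mkx*-/- libraries. Ordered by this sum, the 6 libraries stood in the same order as by *Egr2*, and so they did by *Mbp*, the gene of myelin basic protein, but not by the other 7 markers, of which *S100b* and *Drp2* overlapped between the groups. The median log2 fold change of the markers was 0.98, as was the log2 fold change of *Egr2*. Without *Mkx*-/- replicate 1, the replicate with the lowest sum of the 3, all 8 markers passed, and without any other single library 0 did. The part of nerve in the *Egr2* level was not tested.

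**Figure D3:**
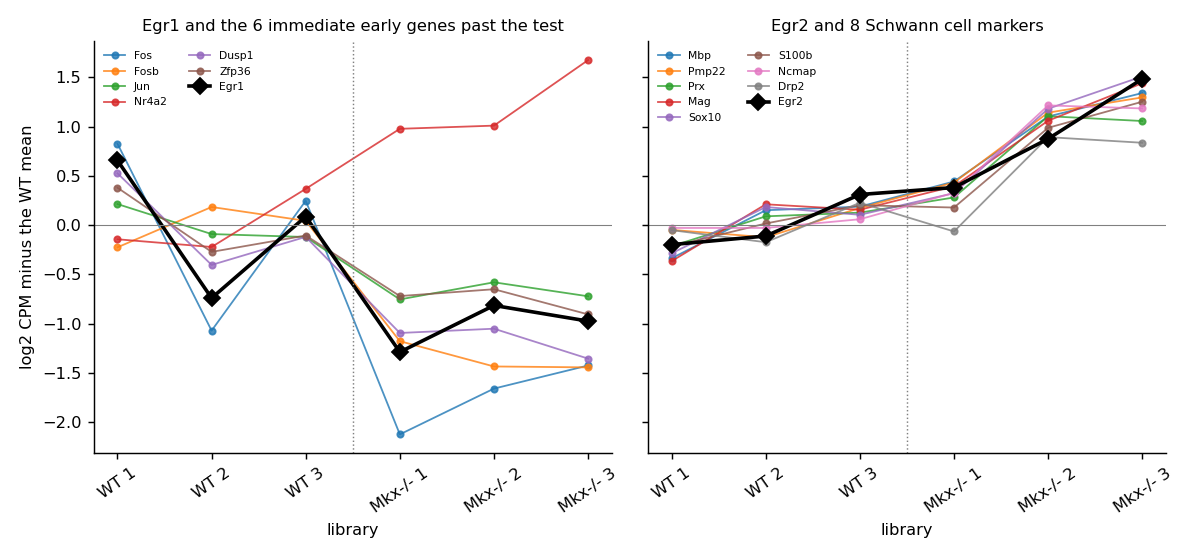
Log2 CPM minus the WT mean (vertical axis) in each library (horizontal axis) for *Egr1* with the 6 immediate early genes that passed the test (left) and for *Egr2* with 8 Schwann cell markers (right); lines join points of the same gene as a guide only, and replicates have no order. *Egr1* and *Fos* share a dip in WT replicate 2, *Nr4a2* is higher in *Mkx*-/- libraries, where the other 5 early genes are lower, and *Egr2* lies within or close to the bundle of Schwann cell markers in all 6 libraries.

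The Six-family and Eya members were compared next. *Six2* lies on the minus strand of chromosome 17 (86083608 to 86087594). Its level was 20.6, 25.3 and 22.3 CPM in the WT libraries and 32.2, 29.9 and 25.6 CPM in the *Mkx*-/- libraries. The groups did not overlap, but *Mkx*-/- replicate 3 exceeded WT replicate 2 by a small margin. The means were 22.7 ± 2.38 CPM (SD, n = 3) and 29.2 ± 3.36 CPM (SD, n = 3), a log2 fold change of 0.36 (SE 0.14, 95% interval 0.044 to 0.68) that did not pass (adjusted p = 0.168 by edgeR). Scaled by library size only, it was 0.62 and passed (adjusted p = 0.0298 by edgeR), a setting that moves the median of all genes to 0.25. *Six2* has 1 promoter window in the RefSeq table, and the CArG box, Egr motif, MEF3 core and E-box were not found in it.

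*Eya1* lies on the minus strand of chromosome 1 (14159035 to 14300281), with up to 18 exons. Its level was 34.3, 42.3 and 44.8 CPM in the WT libraries and 26.5, 22.8 and 23.0 CPM in the *Mkx*-/- libraries. Every WT library was above every *Mkx*-/- library, with WT replicate 1 the lowest of its group. *Eya1* fell from 40.5 ± 5.45 CPM (SD, n = 3) to 24.1 ± 2.08 CPM (SD, n = 3), a log2 fold change of -0.75 (SE 0.14, 95% interval -1.07 to -0.43, adjusted p = 0.0237 by edgeR, 0.00102 by DESeq2). The call remained without WT replicate 1 (adjusted p = 0.00634 by edgeR) or *Mkx*-/- replicate 1 (0.0404) and lost without WT replicate 2 (0.0868), WT replicate 3 (0.0884), *Mkx*-/- replicate 2 (0.0883) or *Mkx*-/- replicate 3 (0.0889), while the fold change stayed between -0.86 and -0.69. With library size scaling only it was -0.49 (adjusted p = 0.0515 by edgeR).

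*Eya2*, on the plus strand of chromosome 2 (165480798 to 165597227), was at 73.7, 55.7 and 55.4 CPM in the WT libraries and 68.1, 69.9 and 51.4 CPM in the *Mkx*-/- libraries. The groups overlapped throughout, with the highest level in a WT library and the lowest in a *Mkx*-/- library. The means were 61.6 ± 10.5 CPM (SD, n = 3) and 63.2 ± 10.2 CPM (SD, n = 3). The log2 fold change was 0.037 (SE 0.17, adjusted p = 0.929 by edgeR), with a 95% interval of -0.35 to 0.43, and its sign turned when WT replicate 2, WT replicate 3, *Mkx*-/- replicate 1 or *Mkx*-/- replicate 2 was left out.

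Ratios between these genes within a library did not depend on scaling. Reads of *Eya2* per read of *Eya1* were 2.14, 1.32 and 1.24 in WT and 2.57, 3.07 and 2.24 in *Mkx*-/- libraries, higher in each *Mkx*-/- library than in any WT library, although WT replicate 1 came close. The mean log2 ratio differed by 0.78, or 1.72-fold. Reads of *Six2* per read of *Eya1* were 0.601, 0.599 and 0.498 in WT and 1.22, 1.31 and 1.11 in *Mkx*-/- libraries. This ratio was higher in each *Mkx*-/- library than in any WT library, and its log2 value differed by 1.10, or 2.15-fold. Reads are not scaled by exon length, so the ratio does not rank the genes. Per kilobase of exon, *Six2* was at 9.79, 12.0 and 10.6 CPM in WT libraries and *Eya1* at 7.86, 9.68 and 10.2 CPM. *Six2* was thus above *Eya1* in each WT library as well. Both differences had a two-sided exact permutation p of 0.1, the smallest possible, and 3 such ratios were compared in all, each with a p of 0.1.

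Among the relatives of the Six-family and Eya members, 5 of 9 genes counted were tested and 1 fell, against 2.26% of all genes. *Eya4*, a further Eya coactivator, was at 20.2, 20.5 and 24.3 CPM in WT and 13.1, 9.13 and 12.7 CPM in *Mkx*-/- libraries, without overlap (log2 fold change -0.90, SE 0.17, adjusted p = 0.0241 by edgeR). The 6 libraries stood in the same order by *Eya4* as by *Eya1*. Like *Eya1*, *Eya4* lost its call without WT replicate 2, WT replicate 3, *Mkx*-/- replicate 2 or *Mkx*-/- replicate 3. *Eya3* was at 38.5, 33.1 and 34.2 CPM in WT and 33.5, 32.4 and 30.2 CPM in *Mkx*-/- libraries (log2 fold change -0.14, adjusted p = 0.537 by edgeR, and 0.11 with library size scaling only). *Six4* and *Six5* had log2 fold changes of -0.31 and 0.12, with adjusted p-values of 0.491 and 0.834 by edgeR. Their groups overlapped. The sign of *Six5* turned without WT replicate 1 or *Mkx*-/- replicate 1. *Six3* and *Six6*, genes of the eye and forebrain, had 0 counts in every library, and *Dach1* and *Dach2*, partners of the Six-family and Eya proteins, had 0 to 6 counts. Since Six-family and Eya genes are also expressed in skeletal muscle, the muscle markers given above move with genotype beside these values, and their part in *Six2* or *Eya1* was not tested.

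**Figure D4:**
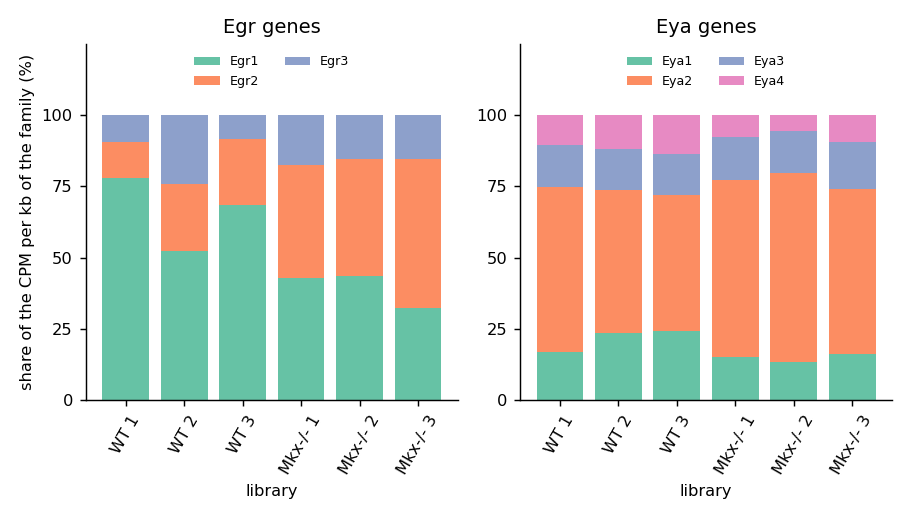
Share of the summed CPM per kilobase of the tested Egr and Eya genes (vertical axes, %) in each library (horizontal axes), with 1 colour per gene. *Egr1* averages 66.4% in WT and 39.7% in *Mkx*-/- tendons and *Egr2* 19.6% and 44.2%, and *Eya2* is the largest Eya share in all 6 libraries.

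Levels of different genes were compared per kilobase of exon. A length was found for 12870 of the 14550 genes (88.5%). In WT tendons the order of mean levels was *Mkx* (43.1 CPM per kb), *Scx* (32.5), *Eya2* (22.5), *Egr1* (12.3), *Six2* (10.8), *Eya1* (9.26) and *Egr2* (3.32). *Mkx* stood above 95.3% of genes with a length, and *Egr2* above 45.3%. Neighbours in this order overlapped over the 3 libraries except *Eya2* over *Egr1* and *Eya1* over *Egr2*. In *Mkx*-/- tendons the order was *Eya2* (23.1 CPM per kb), *Scx* (14.8), *Mkx* (14.3), *Six2* (13.9), *Egr2* (6.54), *Egr1* (5.63) and *Eya1* (5.51), and the neighbours that did not overlap were *Eya2* over *Scx* and *Six2* over *Egr2*. *Eya2* stood first in *Mkx*-/- tendons, while *Mkx* and *Scx* stood at or below 17.7 CPM per kb in every *Mkx*-/- library. *Scx* was also below this level in WT replicate 1, at 15.3 CPM per kb.

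**Figure D5:**
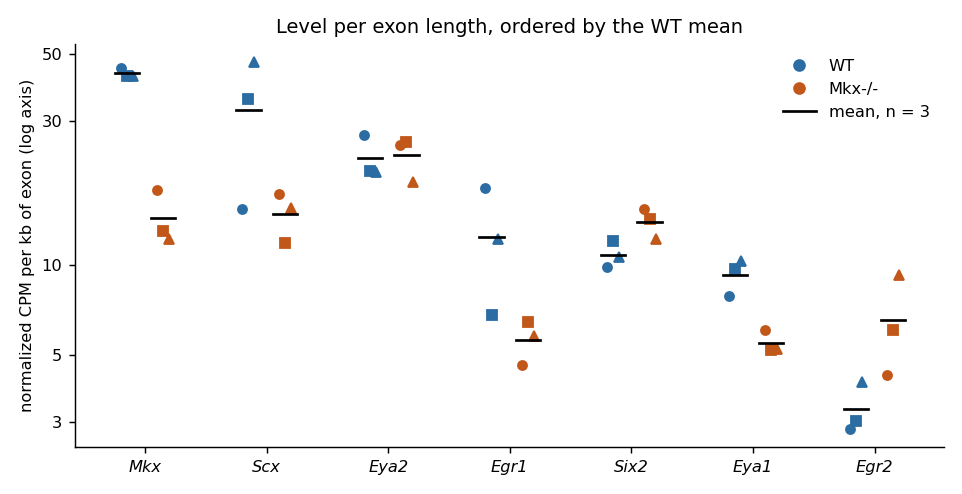
Normalized CPM per kilobase of exon (vertical log axis) of the 7 genes in each library, ordered by the WT mean, with circles, squares and triangles for replicates 1, 2 and 3 and bars for the mean of 3 libraries. *Mkx* and *Scx* have the highest means in WT, *Eya2* has the highest in *Mkx*-/- tendons, and *Egr2* has the lowest in WT.

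Within the families, by share of CPM per kb, *Egr1* made up 66.4% ± 13.0 (SD, n = 3) of the Egr level in WT and 39.7% ± 6.25 (SD, n = 3) in *Mkx*-/- tendons, and *Egr2* 19.6% ± 6.27 (SD, n = 3) and 44.2% ± 6.81 (SD, n = 3). *Egr3* made up the rest. The share of *Eya4* was 12.0% ± 1.64 (SD, n = 3) in WT and 7.58% ± 1.85 (SD, n = 3) in *Mkx*-/- tendons, while that of *Eya2* was 52.0% ± 5.38 (SD, n = 3) and 62.1% ± 4.05 (SD, n = 3).

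Genes whose pattern over the 6 libraries was most like that of each member were sought among the 10294 genes whose mean level reached 5 CPM. The measure was the root mean square difference of log2 CPM, each gene centred on its own mean. It is a description over 6 libraries that share their genotype groups and depth. The closest to *Mkx* were *Mylk* (0.104), the gene of myosin light chain kinase, *Fam46c* (0.110) and *Zfpm2* (0.126), a cofactor of GATA proteins. *Scx* was nearest to *Unc5b* (0.155), a netrin receptor gene, *Dgat2* (0.159), a gene of triglyceride synthesis, and *Ak4* (0.162), and *Egr1* to *Klf7* (0.178) and *Cybb* (0.219), a subunit of the phagocyte oxidase. *Egr2* was nearest to *Cdh1* (0.061), the gene of E-cadherin, *Shc4* (0.088) and *Smco3* (0.094), with *Shc4* and *Smco3* in the same library order as *Egr2*. For *Six2* the nearest genes were *Zbtb7a* (0.038), *Htra2* (0.051) and *Tfe3* (0.053). For *Eya1* they were *Fkbp9* (0.043), an isomerase of the endoplasmic reticulum, *Ctsh* (0.080), the gene of cathepsin H, and *Cyb5r2* (0.083). *Eya2* was nearest to *Arhgap10* (0.034), *Ip6k1* (0.035) and *Tacc2* (0.035). *Scx* and *Egr1*, the members with the widest spread over the WT libraries, had the least close neighbours of the 7.

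Genes of the tendon matrix were counted as possible targets. Of 19 listed, all were tested, 6 rose and 1 fell, against 3.18% and 2.26% of all genes. The median log2 fold change was 0.11, but -0.0087 without *Mkx*-/- replicate 1 and 0.58 over the 16 genes that remain with *Col1a1*, *Col1a2* and *Sparc* left out. DESeq2 passed 7 as higher and 4 as lower, against 787 and 588 of 14550 genes. The summed level of the list was 458290 to 605020 CPM in WT and 305390 to 410180 CPM in *Mkx*-/- libraries, mostly from *Col1a1* and *Col1a2*. *Col1a2* (-1.02, adjusted p = 0.0933 by edgeR) and *Sparc* (-0.76, adjusted p = 0.0994 by edgeR) were lower without overlap and passed DESeq2, while *Col1a1* (-0.68) overlapped between the groups. *Bgn*, the proteoglycan biglycan, rose from 964, 1268 and 1009 CPM in WT to 5175, 4358 and 4777 CPM in *Mkx*-/- libraries (log2 fold change 2.14, SE 0.18, adjusted p = 0.00115 by edgeR), and the collagen V genes *Col5a1* (2.16, adjusted p = 0.00141) and *Col5a2* (1.25, adjusted p = 0.00445) rose with it. *Thbs4*, *Col3a1* and *Lum* also rose. *Col11a2*, which encodes a collagen of thin fibrils, fell (-1.72, SE 0.26, adjusted p = 0.0107 by edgeR). *Tnmd*, a membrane protein of tendon cells that depends on Scx, had 912, 1166 and 1171 CPM in WT and 1292, 886 and 1016 CPM in *Mkx*-/- libraries, with overlapping groups (log2 fold change -0.024, adjusted p = 0.96 by edgeR). Left out in turn, WT replicate 3 gave 3 genes that rose, and the other libraries 4 to 6.

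Other transcription factors of sclerotome and connective tissue were counted last: of 18 tested, 2 rose, 0 fell and 16 did not pass, against 3.18% of all genes that passed as higher. An unadjusted p under 0.05 was found for 12, against 22.6% of all genes, and their median log2 fold change was 0.52. *Tbx15* was at 10.2, 8.83 and 5.77 CPM in WT and 14.4, 17.8 and 17.1 CPM in *Mkx*-/- libraries (log2 fold change 0.99, SE 0.22, adjusted p = 0.0388 by edgeR). *Meox2*, a homeobox gene of the somites, was at 44.7, 48.2 and 47.4 CPM in WT and 70.1, 61.0 and 68.3 CPM in *Mkx*-/- libraries (0.51, SE 0.11, adjusted p = 0.0417 by edgeR). Both had groups that did not overlap, and 0 genes of the list passed without WT replicate 3 or without any 1 of the *Mkx*-/- replicates, with 1 without WT replicate 2 and 3 without WT replicate 1.

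Markers of further cell types were counted in the same way. Of 8 endothelial markers tested 1 rose, *Erg* (log2 fold change 2.12), against 3.18% of all genes, and their summed level was 59.2 to 73.0 CPM in WT and 107 to 160 CPM in *Mkx*-/- libraries. *Erg* had a mean of 8.30 CPM in WT and 36.0 CPM in *Mkx*-/- libraries and so carried part of this difference. Of the 8 markers 5 were higher without overlap, against 14.6% of all genes. DESeq2 passed 5 as higher, against 787 of 14550 genes. The median log2 fold change of the endothelial markers was 1.04, but 0.52 without *Mkx*-/- replicate 3. *Kdr*, *Tek* and *Emcn* overlapped between the groups, with log2 fold changes of 0.65, 0.019 and -0.26. Of 7 cartilage and bone markers 3 were tested and 2 rose, against 3.18% of all genes, the cartilage matrix genes *Matn3* (1.45) and *Acan* (2.20). The third, *Col2a1*, the main collagen of cartilage, had overlapping groups (log2 fold change -0.084, adjusted p = 0.905 by edgeR), and the bone genes *Sp7*, *Bglap*, *Ibsp* and *Dmp1* had 0 to 23 counts. Of 7 epidermal markers 5 were tested and 0 passed edgeR's test, with 4 at an unadjusted p under 0.05, against 22.6% of all genes. DESeq2 passed 2, against 1375 of 14550 genes, *Krt14* as higher (log2 fold change 1.82) and *Trp63* as lower (-1.03). The summed level of the epidermal markers overlapped, with 13.6 to 29.1 CPM in WT and 24.5 to 28.5 CPM in *Mkx*-/- libraries. The part of these cells in the levels of the 7 genes was not tested.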

How the data were processed

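Bulk RNA-seq of 3 WT and 3 *Mkx*-/- tail tendons was analysed. The authors trimmed adaptors, dropped reads of low quality, aligned the rest to mm9 with MapSplice and deposited raw counts per gene symbol without normalization. The counting program, its annotation and its strand setting are not given in the sources used here, so reads of overlapping or closely related genes are uncertain. From the deposited counts, TMM-normalized CPM and fold changes (prior count 0.125) came from edgeR 4.0.16 (R 4.3.3, filterByExpr, quasi-likelihood fit on genotype, Benjamini-Hochberg adjustment). DESeq2 1.42.0 was an alternative. The labels do not say that each library came from a separate mouse, although sex-linked genes show at least 2 mice among the WT libraries, so p-values measure the spread between libraries, which may be in part technical.

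Likeness used log2 CPM with a prior count of 2, and ratios of reads a prior of 0.5. Exon lengths (union of exons) and coordinates came from the GENCODE annotation of mm9, and promoters from RefSeq (GRCm38.p6), matched to mm9 by sequence. Promoter windows were held for 2 of the 7 genes.

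The text names the 7 genes, at most the 4 genes of each list with the smallest p and a mean of at least 1 CPM, the family relatives, the 3 genes most like each member, and defining markers. *Fos*, *Zfp36*, *Col3a1*, *Lum*, *Thbs4*, *Sparc*, *Srf*, *Kdr*, *Tek*, *Emcn*, *Krt14*, *Trp63*, *Bop1* and *Gm17507* were named after their values were seen. A few genes that the rule or lists cover are withheld for evaluation, were left out of the lists and are not reported here. Members, lists and rule were chosen with earlier results of these data known. Alternatives were DESeq2, RLE, upper-quartile and library size scaling, filters of 1 count in any and 10 counts in every library, a robust fit, removal of *Col1a1*, *Col1a2* and *Sparc* or of the muscle list, each library left out, and a block for replicate number. The scripts were tested on simulated data.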

Additional observations from a re-analysis of the deposited data

How the results depend on the processing

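*Mkx* kept its direction and passed under all 16 alternatives (log2 fold change -1.80 to -1.36, adjusted p up to 0.0161). DESeq2 and the filter of 1 count in any library passed *Scx* (-1.15 and -1.13), *Egr1* (-1.14 and -1.12) and *Egr2* (0.97 and 0.99), and library size scaling passed *Egr2* (1.26) and *Six2* (0.62) while *Eya1* (-0.49) lost its call. Each library left out in turn gave -1.49 to -0.80 for *Scx*, -1.43 to -0.75 for *Egr1*, 0.64 to 1.18 for *Egr2*, -0.86 to -0.69 for *Eya1* and -0.048 to 0.18 for *Eya2*, whose direction turned in 4 of the 6. The directions of the other 6 members held in every alternative. The 3 read ratios kept their direction in all 8 of theirs.

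The replicate numbers did not pair the libraries: same-numbered libraries deviated from their group means with correlations of 0.026, -0.21 and 0.30, and WT replicate 1 deviated most like *Mkx*-/- replicate 2 (0.40). With the replicate number as a block, 434 genes passed, *Eya1* did not (-0.74, adjusted p = 0.0717 by edgeR) and *Egr2* did (0.93, adjusted p = 0.0457). The call of the other members was the same with the block.

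The 792 genes past the test became 1375 with DESeq2, 1555 with library size scaling, 1564 with the filter of 1 count and 244 to 978 with a library left out. The 468 genes that also passed a log2 fold change of 1 became 865, 863 and 215 to 569 under the last 3 of these, 662 with DESeq2 and 331 with the block. Of the 865 genes under library size scaling, 82.2% were higher, against 58.8% of the 468. The causes were not tested, except that scaling by library size moves the median of all genes from -0.0037 to 0.25. Listed genes were refitted under the same alternatives after seeing the data. *Egr3* turned without WT replicate 3 (-0.22) and *Mkx*-/- replicate 3 (-0.11), *Six5* without WT replicate 1 (-0.13) or *Mkx*-/- replicate 1 (-0.039), and *Eya3* with library size scaling (0.11). Over the libraries left out, *Egr3* ranged from -0.22 to 0.32 and *Six5* from -0.13 to 0.29. Depth limits genes with few counts, such as *Id4*, with at most 38 counts in a library. The lowest count of a member was 105, for *Egr2*.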
